A study of Homo sapiens with 4 samples.

Results

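SQSTM1, TRAF3IP2, IL1A, IL1B, IL1R1, ATM, ATR, TRAF6 and IRAK1 were followed as the known upstream and downstream genes of the GATA4 branch of cellular senescence. They were taken by symbol from the deposited expression table, and all 9 of 9 symbols were present among its 23143 genes. Polyadenylated RNA was sequenced from A549, a human lung adenocarcinoma line with the features of alveolar type II cells, in 4 libraries. The 2 noDOX libraries came from cells with a normal level of GATA4, for which the design text names a vehicle, and the 2 DOX libraries came from doxycycline-induced cells that overexpress GATA4. The parental line is the same in every library. The dose, the duration, the promoter and the number of clones were each not given in the sources used here. A doxycycline-treated library without the inducible gene was not analysed here, so doxycycline and GATA4 cannot be told apart.

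GATA4 is a zinc finger transcription factor best known from heart and endoderm. In senescent fibroblasts its protein escapes selective autophagy: the receptor p62, encoded by SQSTM1, normally delivers GATA4 for degradation, and the DNA damage kinases ATM and ATR release it. The stabilised factor then raises TRAF3IP2 and IL1A, and interleukin-1 signals through IL1R1, the kinase IRAK1 and the ubiquitin ligase TRAF6 to NF-κB and the secreted inflammatory factors. Much of this route is set by protein binding, protein decay and phosphorylation, none of which is measured by RNA.

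Values are FPKM, fragment numbers divided by transcript length and library size, and on that basis levels were set side by side between genes. Differences between libraries still moved with transcript length, as given below, so levels of genes of unlike length compare only roughly. GATA4 itself was at 12.2 and 14.5 FPKM in noDOX libraries 1 and 2 and at 75.0 and 48.0 FPKM in DOX libraries 1 and 2. The FPKM sum without small RNA genes was 900263 and 755157 in noDOX 1 and DOX 2, against 575373 and 568294 in noDOX 2 and DOX 1, so 1 library of each group stood high. All 7 epithelial markers had a mean of at least 1 FPKM, against 2 of 10 leukocyte, 1 of 8 fibroblast and 0 of 6 endothelial markers.

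The members spanned more than 3 orders of magnitude in level. In the order of the mean over 4 libraries they ran SQSTM1, IRAK1, IL1R1, TRAF3IP2, ATR, ATM, TRAF6, IL1B and IL1A. SQSTM1 lay at percentile 97.3 to 97.8 of the genes above 0 FPKM in a library and IRAK1 at percentile 90.8 to 94.8. ATR lay near the middle, at percentile 45.3 to 45.4, and TRAF6 at percentile 32.8 to 34.7. IL1R1 and TRAF3IP2 had overlapping values, as had TRAF6 and IL1B, and the other 6 neighbouring pairs in this order did not overlap.

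**Figure D1:**
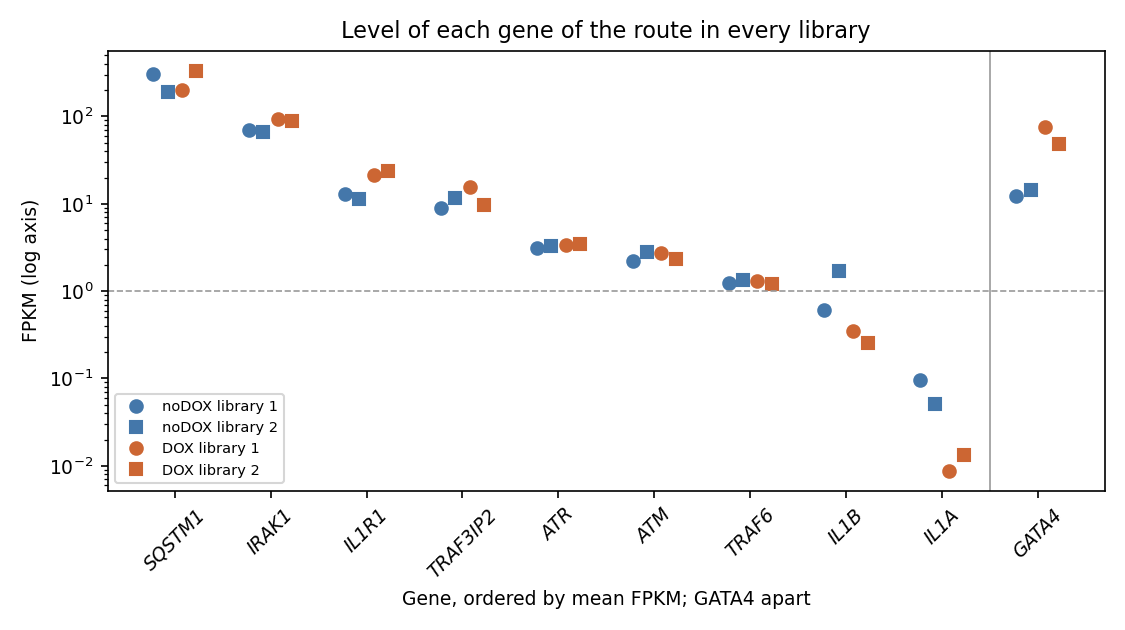
FPKM (log axis) of the 9 members and of GATA4, 1 point for each library, blue for noDOX and orange for DOX, circles for library 1 and squares for library 2. The dashed line marks 1 FPKM, the mean needed for testing. IL1R1, IRAK1 and ATR have both DOX points above both noDOX points, and IL1A and IL1B have both below.

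Differences between the groups were tested with limma on log2(FPKM + 1) for the 12504 genes whose mean reached 1 FPKM, with Benjamini-Hochberg adjustment over all of them and a threshold of 0.05. Of the 9 members, 7 reached that level, and IL1A and IL1B did not. None of the 7 passed, with 0 higher and 0 lower (limma, adjusted p = 0.520 to 0.999). GATA4, the induced gene, did not pass either (limma, adjusted p = 0.289), so a member that did not pass may still differ. Of all tested genes 0.088% passed, 0.024% higher and 0.064% lower. At an unadjusted p under 0.05 there was 1 member, IL1R1, against 6.34% of all tested genes. A log2 difference on this scale understates the change of low genes, and a fold given here is the ratio of mean FPKM. The labels do not say whether replicates came from separate cultures, so p-values reflect only how far these libraries differ, and that spread may be technical. With 2 libraries against 2 an exact permutation test cannot go below p = 0.333.

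In 3 of the 7 tested members, IL1R1, IRAK1 and ATR, both DOX libraries lay above both noDOX libraries, and in 0 both lay below. Over all tested genes these shares were 14.7% and 17.3%, or 32% in either direction. The split over all genes depended on scaling, with 1836 genes higher and 2162 lower as deposited and 2325 and 1745 after median ratio scaling. The median log2 difference was 0.11 over the 7 tested members and -0.04 over all tested genes. The members were chosen with earlier results of these data known, so these counts and medians support no direction.

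**Figure D2:**
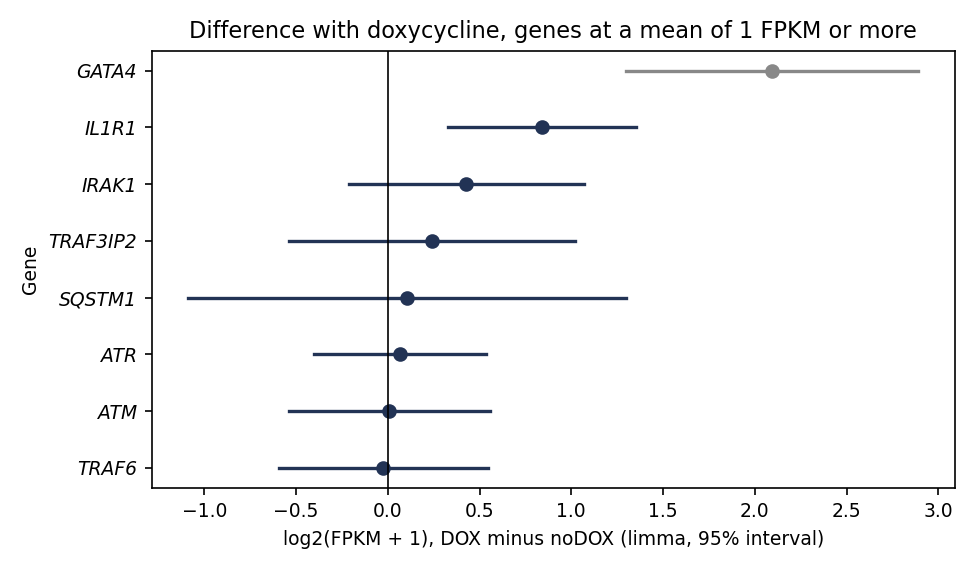
Difference in log2(FPKM + 1), DOX minus noDOX, for the 7 tested members (dark) and GATA4 (grey), with the limma estimate as a point and its unadjusted 95% interval as a line. The interval of IL1R1 runs from 0.33 to 1.35, and those of the other 6 members include 0.

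Both interleukin-1 ligands were low and had lower values in the DOX libraries, and IL1A was close to the limit of detection. IL1A, the ligand that works as a nuclear and membrane-bound alarm signal, was at 0.0970 and 0.0505 FPKM in noDOX libraries 1 and 2. In DOX libraries 1 and 2 it was at 0.00880 and 0.0134 FPKM. IL1B, the ligand secreted after cleavage by caspase-1, was at 0.613 and 1.70 FPKM without doxycycline and at 0.352 and 0.253 FPKM with it. The DOX values of each ligand lay below both noDOX values, at 0.150 times the noDOX mean for IL1A and 0.262 times for IL1B. With every gene above 0 FPKM admitted, neither passed (limma, adjusted p = 0.739 for IL1A and 0.794 for IL1B).

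The read depth is unknown, but the low values moved in steps. Among non-small-RNA genes under 0.2 FPKM in every library, 25.3 to 32.4% had ratios to noDOX 1 within 0.003 (log2) of 1 to 1, 1 to 2 or 2 to 1 once each library's step was set. By these steps, relative to noDOX 1, the depth was 1.15 in noDOX 2, 1.10 in DOX 1 and 0.726 in DOX 2. On that scale IL1A came out at 10 and 6 fragments in the noDOX libraries and 1 and 1 in the DOX libraries, within 0.0049% of whole numbers. IL1B came out at 30 and 96 fragments in the noDOX libraries and 19 and 9 in the DOX libraries, within 0.0034%. These are the smallest whole numbers that match within 0.2%, and a common multiple of them cannot be told apart.

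Per unit of depth, DOX over noDOX was 0.147 for IL1A (exact 95% interval 0.0164 to 0.626) and 0.262 for IL1B (0.167 to 0.397). Both intervals cover counting error only and compare these libraries, not the conditions. The noDOX libraries also differed from each other in IL1B, by 2.78 times (1.83 to 4.34), which is more than counting error. For IL1A the same ratio was 0.521 (0.156 to 1.58). On that scale the IL1A value rests on 1 fragment in each DOX library.

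**Figure D3:**
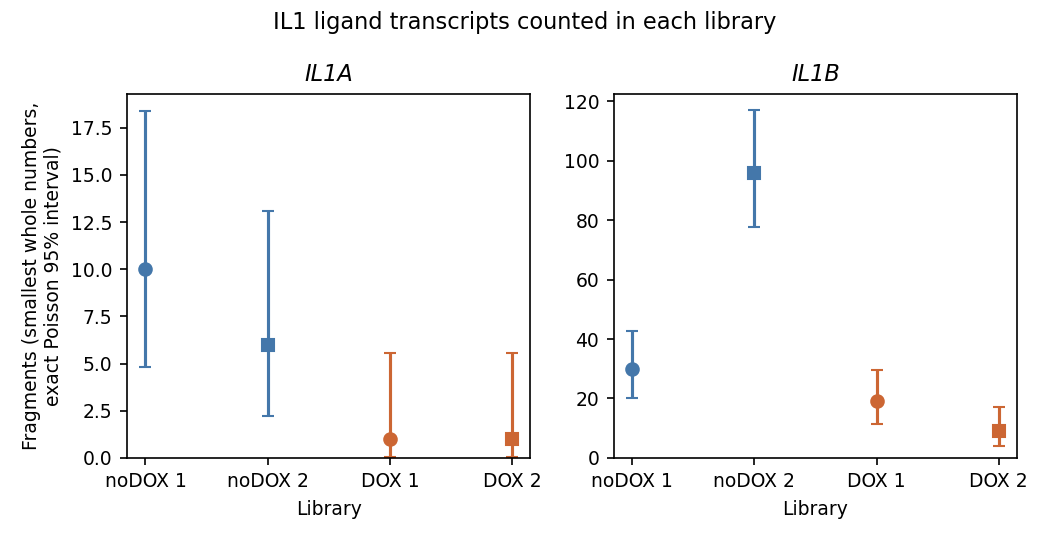
Fragments of IL1A and IL1B in each library, as the smallest whole numbers that fit the steps of the low FPKM, with exact Poisson 95% intervals (counting error only, vertical axes from 0, not adjusted for depth). IL1A has 10, 6, 1 and 1 fragments and IL1B 30, 96, 19 and 9.

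Leukocytes are a rich source of IL1B. Their marker list summed to 9.67 and 10.8 FPKM in the noDOX libraries and to between 5.85 and 17.5 FPKM in the DOX libraries. CD14 and LYZ made up most of this. PTPRC, the common leukocyte antigen, was listed at 0 in all libraries except DOX 1, at 0.0052 FPKM, and CD163, CD3E and FCGR3A were listed at 0 in all 4. The part of leukocyte RNA in the IL1B values was not tested. In RNA from whole cultures, fewer cells with a transcript and less of it per cell cannot be told apart.

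Of the 12 ligands and antagonists of the family, 2 were abundant enough to test. IL18, a ligand matured by caspase-1, was at 76.0 and 73.1 FPKM without doxycycline and at 37.7 and 52.4 FPKM with it. Its DOX values lay below both noDOX values, and the log2 difference of -0.73 (SE 0.27) did not pass (limma, adjusted p = 0.782). IL18BP, which neutralises IL18, was at 4.96 ± 1.61 and 4.97 ± 0.15 FPKM (SD, n = 2 each). The receptor antagonist gene IL1RN was listed at 0 in all 4 libraries.

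IL1R1, the signalling receptor for both IL1 ligands, differed most among the tested members. It was at 12.8 and 11.3 FPKM without doxycycline and at 21.4 and 23.5 FPKM with it. The lowest DOX value was well above the highest noDOX value, and libraries within a group lay close together. The noDOX mean was 12.1 ± 1.1 FPKM and the DOX mean 22.5 ± 1.4 FPKM (SD, n = 2 each), a ratio of 1.86. On the log2 scale it was higher by 0.84 (SE 0.19), which did not pass (limma, adjusted p = 0.520). The difference stayed between 0.76 and 0.99 over 16 alternative analyses and passed in 0 of them (adjusted p = 0.137 to 1.0).

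Decoy receptor and co-receptor had the other direction. IL1R2, the decoy receptor that binds ligand without signalling, was at 1.87 and 2.59 FPKM without and 1.10 and 1.30 FPKM with doxycycline. IL1RAP, the co-receptor that IL1R1 needs to signal, was at 1.93 and 3.70 against 1.56 and 1.72 FPKM. Both had lower DOX values without overlap, with log2 differences of -0.55 (SE 0.23) and -0.49 (SE 0.30). Neither passed (limma, adjusted p = 0.858 and 0.986). The IL1RAP difference was -0.15 without noDOX library 2 and -0.84 without noDOX library 1. Of 10 listed receptors 5 were tested, with 2 at higher and 3 at lower mean log2 values, a median of -0.33 and 0 called.

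RefSeq lists 4 start sites of IL1R1 and 1 of IL1B on GRCh38.p14, a later build than the hg19 of the expression table. The 250 bases before each were searched on both strands for the GATA letters GATA preceded by A or T and followed by A or G, because the induced protein is a GATA factor. The windows of 3 of the 4 IL1R1 starts and that of IL1B held a match, and 22.3% of the 35116 promoters in the table did. Shown are the windows of IL1R1 starts 3 and 4, which lie outside the gene's annotated exons, and the part of the IL1B window outside exons. They are written 5′ to 3′ on the gene's strand, with GATA matches in capitals. The window of IL1R1 start 3 is chr2:102142056-102142305 (plus strand), that of start 4 is chr2:102142496-102142745 (plus strand), and the IL1B stretch chr2:112836904-112837029 (minus strand).
IL1R1 start 3: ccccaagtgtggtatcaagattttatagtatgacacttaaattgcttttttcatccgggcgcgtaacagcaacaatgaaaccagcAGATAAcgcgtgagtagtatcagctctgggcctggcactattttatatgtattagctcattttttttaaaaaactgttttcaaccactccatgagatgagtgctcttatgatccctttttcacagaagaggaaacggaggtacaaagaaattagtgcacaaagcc
IL1R1 start 4: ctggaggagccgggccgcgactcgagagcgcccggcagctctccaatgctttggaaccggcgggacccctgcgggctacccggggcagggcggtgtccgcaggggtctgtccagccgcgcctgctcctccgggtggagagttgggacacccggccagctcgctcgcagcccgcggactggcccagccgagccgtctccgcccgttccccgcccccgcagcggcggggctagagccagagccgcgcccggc
IL1B: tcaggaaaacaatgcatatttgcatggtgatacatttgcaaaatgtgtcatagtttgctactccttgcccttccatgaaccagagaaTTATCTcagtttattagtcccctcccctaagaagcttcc

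In the window of IL1R1 start 3 the match lies 165 to 160 bases before the start, in sequence of 39.6% GC. The window of start 4, at 76.8% GC, holds none of the letters searched. The IL1B match, 163 to 158 bases before the start, is on the other strand. Over the members, 5 of 17 windows (29.4%) held a GATA match, against 22.3% of all promoters, with TRAF3IP2 start 2 beside those named. That TRAF3IP2 window lies wholly within the gene's annotated exons. Neither IL1A window held a GATA match. The NF-κB consensus was found in 1 window, that of IRAK1, against 9.96% of all promoters, and the antioxidant response core TGACNNNGC in 4 windows, against 10.9%. The windows of the IL1A starts overlap and hold the same TGACGACGC, so these 4 windows hold 3 distinct matches. A match is a description of letters, and nothing here measures binding. The table gives no level per start site.

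Of 14 genes that process or release IL1 ligands 8 were tested, with 6 at higher and 2 at lower mean log2 values, a median of 0.09 and 0 called. CAPN1, a calpain subunit of the protease type that cleaves pro-IL1A, was at 52.6 and 57.8 FPKM without and 78.7 and 68.2 FPKM with doxycycline (log2 difference 0.40, SE 0.24; limma, adjusted p = 0.986). S100A13, a partner of IL1A in its export, was at 212 and 77.3 against 189 and 266 FPKM, and the groups overlapped. GSDMD, which forms the pore through which IL1B leaves a cell, was at 17.5 ± 2.9 and 19.2 ± 2.9 FPKM (SD, n = 2 each).

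The kinase IRAK1, which is recruited to the receptor through MYD88, also had higher DOX values. It was at 69.1 and 66.8 FPKM without doxycycline and at 93.9 and 89.7 FPKM with it. The groups were separated by far more than the libraries within them. The noDOX mean was 67.9 ± 1.6 FPKM and the DOX mean 91.8 ± 3.0 FPKM (SD, n = 2 each), a ratio of 1.35. The log2 difference of 0.43 (SE 0.24) did not pass (limma, adjusted p = 0.971). The limma standard error borrows from other genes of similar level, so it is wider than this gene's own spread. Over 16 alternatives the difference ran from 0.40 to 0.56.

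TRAF6, the ubiquitin ligase that IRAK1 activates, was low, with overlapping groups. It was at 1.23 and 1.35 FPKM without and at 1.31 and 1.20 FPKM with doxycycline. The log2 difference was -0.02 (95% interval -0.59 to 0.55). That interval does not exclude a change in either direction, and on the log2(FPKM + 1) scale it understates the change of a gene this low.

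Within each library IRAK1 was 24.5 and 24.4 times IRAK4 in the noDOX libraries and 26.0 and 31.4 times in the DOX libraries, a ratio in which scaling between libraries cancels. IRAK4, the kinase that phosphorylates IRAK1, was at 2.82 and 2.73 FPKM against 3.62 and 2.86 FPKM. The IRAK1 to IRAK4 ratio was higher in both DOX libraries, with a log2 difference of 0.22 (exact two-sided permutation p = 0.333, the smallest this design can give). That difference was 0.36 without DOX library 1 and 0.085 without DOX library 2. The ratio of TRAF6 to TRAF2, another TRAF ligase, was 0.0559 and 0.0764 without and 0.0993 and 0.0592 with doxycycline, and the groups overlapped (exact permutation p = 0.667). IL1A was 0.00755 and 0.00445 times IL1R1 without and 0.000411 and 0.000569 times with doxycycline. Both DOX ratios lay below both noDOX ratios, with a log2 difference of -3.58 (exact permutation p = 0.333), and the DOX values rest on the few IL1A fragments given above. In all, 6 ratios were planned. IL1RN to IL1R1 was not computed, because IL1RN is listed at 0.

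Of the 20 genes of the MYD88, IRAK and TRAF6 relay 19 were tested, with 9 higher and 10 lower on average and a median of -0.02. None was called (0 of 19), and 4 higher and 4 lower genes had groups that did not overlap, shares near the 14.7% and 17.3% of all tested genes. PELI2, an IRAK-binding ubiquitin ligase, was at 0.409 and 0.543 against 2.41 and 1.13 FPKM (log2 difference 0.87, SE 0.32; limma, adjusted p = 0.775), and the difference was 0.53 without DOX library 1. IRAK2, a paralog of IRAK1 that NF-κB itself induces, was at 3.94 and 4.63 against 2.99 and 2.41 FPKM (log2 difference -0.52, SE 0.20; adjusted p = 0.806). IRAK1BP1, which binds IRAK1, was at 2.16 and 1.71 against 1.03 and 1.30 FPKM. MYD88, the adaptor between receptor and kinase, was at 12.6 and 8.16 against 11.4 and 15.5 FPKM, and the groups overlapped.

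TRAF3IP2 encodes Act1, the adaptor and ubiquitin ligase of interleukin-17 receptors, and is a reported GATA4 target in senescent fibroblasts. It was at 8.96 and 11.8 FPKM without doxycycline and at 15.6 and 9.73 FPKM with it. DOX 1 was the highest of the 4 libraries, and DOX 2 lay between the noDOX libraries, so the groups overlapped. The noDOX mean was 10.4 ± 2.0 FPKM and the DOX mean 12.6 ± 4.1 FPKM (SD, n = 2 each), with a log2 difference of 0.24 (95% interval -0.54 to 1.02; limma, adjusted p = 0.999). Without DOX library 1 the difference was -0.07 and without DOX library 2 it was 0.55. The direction for TRAF3IP2 therefore rests on DOX library 1. TRAF3IP2-AS1, the antisense gene, was at 3.06, 2.11, 2.63 and 2.17 FPKM in noDOX 1, noDOX 2, DOX 1 and DOX 2, and the strand setting of the counting was also not given in the sources used here.

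Among the tested genes around Act1, IL17RC differed most. IL17RC, a subunit of the interleukin-17 receptor that recruits Act1, was at 10.98 and 10.05 FPKM without doxycycline and at 46.2 and 59.4 FPKM with it. Every DOX value was more than 4 times every noDOX value, and the ratio of the means was 5.02. The log2 difference of 2.21 (SE 0.23) had an unadjusted p of 3.46e-04 and missed the threshold over all genes (limma, adjusted p = 0.166). It ran from 2.04 to 2.39 over 16 alternatives and passed in 0 of them (adjusted p = 0.058 to 0.552). GATA4 itself had a log2 difference of 2.09 (SE 0.30), which did not pass either (limma, adjusted p = 0.289). Whether GATA4 and IL17RC are linked was not tested.

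IL17RE, a related subunit that was named after its values were seen, was below the level for testing, at 0.206 and 0.174 against 1.30 and 2.10 FPKM. Its groups did not overlap either, and the ratio of the means was 8.95. IL17RA, the shared subunit that pairs with both, was at 2.10 and 2.64 against 2.93 and 2.37 FPKM, and the groups overlapped. The ligand genes IL17A and IL17F were listed at 0 in all 4 libraries. IL17RB was at 1.51 and 1.44 against 1.11 and 0.833 FPKM, and TNIP1, an inhibitor of NF-κB signalling, at 35.4 and 41.1 against 29.6 and 29.2 FPKM. Of 14 genes on this list 9 were tested, with 4 at higher and 5 at lower mean log2 values, a median of -0.01 and 0 called.

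SQSTM1, which encodes the autophagy receptor p62, was the most abundant member and the one that varied most within a group among those tested. It was at 309 and 188 FPKM in noDOX libraries 1 and 2 and at 202 and 334 FPKM in DOX libraries 1 and 2. The high values were 1 from each group, noDOX 1 and DOX 2. The noDOX mean was 249 ± 85 FPKM and the DOX mean 268 ± 93 FPKM (SD, n = 2 each), and the log2 difference was 0.11 (95% interval -1.09 to 1.30; limma, adjusted p = 0.999). A difference of 2-fold in either direction lies inside that interval. The difference was 0.47 without DOX library 1, 0.46 without noDOX library 1, and -0.25 without noDOX library 2 or DOX library 2.

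Scaling of whole libraries cancels in a ratio within a library, and the split was present there too. SQSTM1 was 13.1 and 6.80 times NBR1, the related autophagy receptor, in noDOX 1 and 2, and 6.72 and 13.4 times in DOX 1 and 2. The ratio differed between the groups by 0.0081 on the log2 scale (exact permutation p = 1.0). Transcript length moved with the split: in length quartile 1, the shortest tested genes, by the longest coding transcript, the median noDOX 2 minus noDOX 1 difference was -0.47 and the median DOX 2 minus DOX 1 difference was 0.38. In quartile 4 these were 0.28 and -0.25. SQSTM1, in quartile 2, differed by -0.71 and 0.72, where the medians of that quartile were -0.09 and 0.10. TRAF3IP2, in quartile 3, differed by 0.36 and -0.62 against medians of 0.09 and -0.07. The median DOX minus noDOX difference also moved with length, from -0.15 in quartile 1 through -0.061 and 0.011 to 0.068 in quartile 4. The part of transcript length in the values of the members and of the lists was not tested.

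The listed genes nearest to SQSTM1 over the 4 libraries, by the root mean square difference of centred log2 values among 155 candidates, were CAPNS1, the small calpain subunit, at 0.071, and ATG3, the enzyme that joins ATG8 proteins to lipid, at 0.094. For TRAF3IP2 they were MAP2K5, a kinase of the ERK5 cascade, at 0.030, and WDFY3, an autophagy scaffold, at 0.039. Those of IL1R1 were farther off, KEAP1 at 0.203 and MAP3K3 at 0.221. IRAK1 had CAPN1 near it, at 0.082. These are descriptions over 4 libraries.

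**Figure D4:**
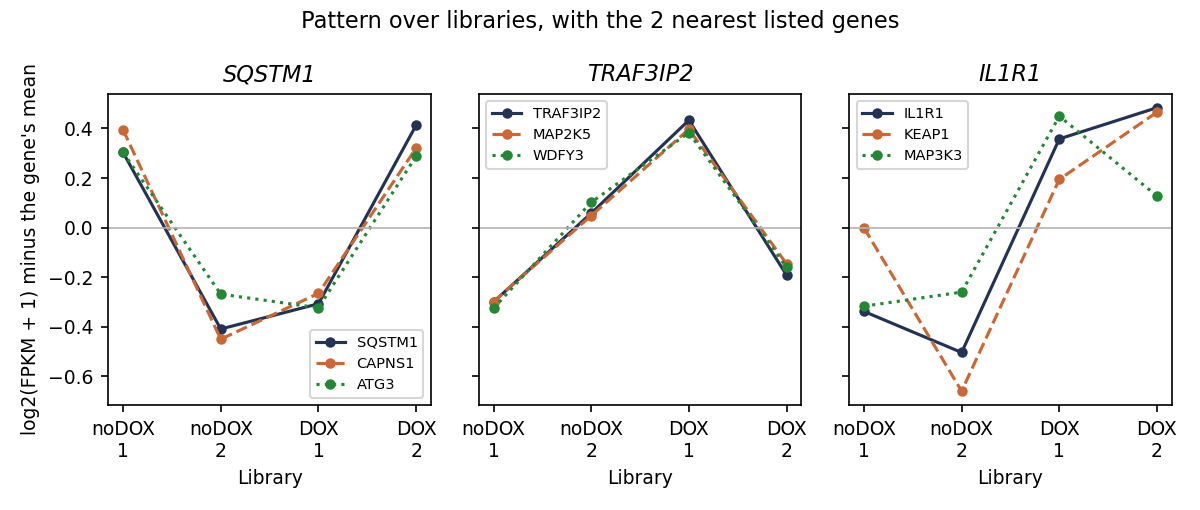
log2(FPKM + 1) minus each gene's own mean over the 4 libraries, for SQSTM1, TRAF3IP2 and IL1R1 (dark solid lines) and the 2 nearest listed genes of each. SQSTM1 is high in noDOX 1 and DOX 2, TRAF3IP2 is highest in DOX 1, and IL1R1 is high in both DOX libraries.

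SQSTM1 also shares bases with other genes. In GENCODE release 29, 20.7% of its exon bases, over all transcripts, overlap MRNIP on the opposite strand. MRNIP is listed under its older name C5orf45, at 28.0 and 24.8 FPKM without and 25.8 and 34.7 FPKM with doxycycline. Its level was low beside that of SQSTM1 in each library.

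Autophagy receptors and ATG8 family genes, with SQSTM1 counted among them, were split evenly, with 8 of 17 tested genes at higher and 9 at lower mean log2 values, a median of -0.02 and 0 called. NBR1 was at 23.6 and 27.7 against 30.1 and 24.9 FPKM. FAM134B, a receptor for autophagy of the endoplasmic reticulum, was at 1.59 and 2.88 against 11.5 and 4.89 FPKM (log2 difference 1.43, SE 0.44; limma, adjusted p = 0.671), and the difference was 0.89 without DOX library 1. MAP1LC3B, an ATG8 protein that p62 binds, was at 13.5 and 11.8 against 15.5 and 15.7 FPKM. BNIP3L, a mitophagy receptor, was at 17.8 and 21.4 against 16.0 and 14.6 FPKM.

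The core machinery of autophagy was split evenly too, with 13 of 25 genes at higher and 12 at lower values, a median of 0.02 and 0 called. WIPI1, which marks forming autophagosomes, was at 11.95 and 14.71 against 24.8 and 18.1 FPKM (log2 difference 0.64, SE 0.25; limma, adjusted p = 0.811). ULK1, the initiating kinase, was at 22.8 and 23.4 against 17.8 and 19.4 FPKM, and TFEB, a transcription factor for lysosomal genes, at 2.45 and 2.36 against 1.83 and 1.93 FPKM.

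Genes whose proteins bind p62 or act with it leaned higher. Of 11 tested genes on this list of 12, 10 had higher mean log2 values, where 43.9% of all tested genes did, and 6 of them had groups that did not overlap, against 14.7%. The median was 0.31, and 0 were called. As this list was chosen with earlier results of these data known, its counts and median describe the chosen genes and support no direction. PRKCI, an atypical protein kinase C that binds p62, was at 13.8 and 21.4 against 54.8 and 31.9 FPKM (log2 difference 1.24, SE 0.38; limma, adjusted p = 0.671). MAP3K3, a kinase of NF-κB and ERK5 signalling, was at 4.40 and 4.62 against 8.19 and 6.35 FPKM. KEAP1, the NRF2 inhibitor that p62 sequesters, was at 39.7 and 24.8 against 45.6 and 55.3 FPKM. Leaving out 1 library took the median of this list to between 0.063 and 0.52.

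ATM, the kinase that answers DNA double-strand breaks, was low. It was at 2.24 and 2.78 FPKM without doxycycline and at 2.75 and 2.31 FPKM with it. The groups overlapped almost completely, and the log2 difference was 0.01 (95% interval -0.54 to 0.56). ATR, which answers stalled replication forks, was at 3.12 and 3.32 FPKM without and at 3.33 and 3.51 FPKM with doxycycline. Its groups did not overlap, but the gap between them was small beside the spread within each, and the log2 difference was 0.07 (95% interval -0.40 to 0.54; limma, adjusted p = 0.999). Both intervals exclude a difference of 1 on the log2(FPKM + 1) scale and leave smaller ones possible.

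Within each library ATM was 0.719 and 0.836 times ATR in the noDOX libraries and 0.826 and 0.657 times in the DOX libraries. The ratio overlapped between the groups (exact permutation p = 0.667). ATM shares exon bases with NPAT (0.597%) and C11orf65 (0.476%) on the opposite strand. ATR shares 16.4% of its exon bases with AC109992.1, a gene on the opposite strand that is not listed by that name.

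Of 29 tested genes of ATM, ATR and DNA damage signalling, 17 lay higher and 12 lower on average (median 0.03, 0 called). CHEK2, the effector kinase of ATM, was at 20.98 and 18.44 FPKM without and at 8.35 and 12.7 FPKM with doxycycline. Its groups did not overlap, and the log2 difference of -0.87 (SE 0.26) missed the threshold (limma, adjusted p = 0.671). CHEK2 shares 6.7% of its exon bases with HSCB on the opposite strand, and it is known to have partial copies elsewhere in the genome, so its value is less certain. RAD9A, part of the clamp that activates ATR, was at 8.70 and 8.74 against 7.03 and 6.74 FPKM. MDM2, a ubiquitin ligase of the DNA damage response, was at 2.86 and 4.99 against 8.73 and 4.51 FPKM, with overlapping groups.

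The NF-κB core, to which the route leads, was mixed, with 3 of 15 genes at higher and 12 at lower mean log2 values, against 56.1% lower among all tested genes, and a median of -0.14. None passed (0 of 15), and 4 had an unadjusted p under 0.05, against 6.34% of all tested genes. This list was also chosen with earlier results of these data known, so its counts and median support no direction. NFKBIA, the inhibitor IκBα that NF-κB induces, was at 65.6 and 67.7 FPKM without doxycycline and at 29.4 and 32.4 FPKM with it. The values within a group lay close together and the groups were far apart, with a log2 difference of -1.09 (SE 0.22; limma, adjusted p = 0.494). RELB, a subunit of the noncanonical pathway, was at 10.3 and 16.1 against 7.26 and 5.36 FPKM.

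NFKBIZ, a nuclear IκB protein that interleukin-1 and interleukin-17 induce, had the opposite direction. It was at 5.22 and 8.41 FPKM without and at 23.4 and 13.4 FPKM with doxycycline. Its groups did not overlap either, and the log2 difference was 1.29 (SE 0.36; limma, adjusted p = 0.630).

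Genes that interleukin-1 is known to induce had lower values in the DOX libraries. This list was made with their behaviour in these libraries known, so its counts and median describe the chosen genes and support no direction. Of 23 genes 17 were tested, and all 17 had lower mean log2 values, where 56.1% of all tested genes did. The median was -1.29, against -0.04 over all tested genes, and 15 of the 17 had DOX libraries below both noDOX libraries, against 17.3%. The exceptions were CXCL2 and BIRC3, named after their values were seen, whose groups overlapped. None was called (0 of 17), and 15 had an unadjusted p under 0.05, against 6.34% of all tested genes. Without noDOX library 2, which had the highest IL8 and IL1B, 16 of the 17 had lower mean log2 values and the median was -1.33. CXCL1, a neutrophil chemokine, was at 21.1 and 23.6 against 6.23 and 4.53 FPKM (log2 difference -1.88, SE 0.22; limma, adjusted p = 0.218). IL8 was at 14.0 and 22.4 against 3.51 and 2.06 FPKM and CXCL5 at 15.9 and 14.0 against 5.57 and 5.86 FPKM (limma, adjusted p = 0.289 for each).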

How the data were processed

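The authors deposited 1 table of FPKM with 1 column for each of the 4 libraries. Per the submitters' processing notes TopHat2 2.0.10, Bowtie, Cufflinks 2.2.1 and Cuffdiff were used with hg19. Annotation, strand and between-library scaling were each not given in the sources used here, and MIR, SNOR, RNU, RNY, RN7S and SCARNA genes held 34.8 to 41.9% of each FPKM sum.

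log2(FPKM + 1) of genes whose mean reached 1 FPKM was fitted with limma 3.58.1 in R 4.3.3 (2 group means, mean-variance trend, two-sided, checked on simulated data). The simulated noise was independent between genes, so this check does not cover the split between libraries described above. Intervals of differences are unadjusted and use 4.52 degrees of freedom. The members and the 11 pathway lists were chosen with earlier results of these data known. Named were all members, up to 3 genes of each list with the smallest p, partners used in ratios, the 2 nearest genes of a member, and neighbours sharing bases. TTI2 was the 1 listed gene with no matching symbol. Promoters came from RefSeq (GRCh38.p14), where 9 of 9 members matched by symbol, and exon overlaps and lengths from GENCODE release 29, where 87.1% of genes had a length. Alternatives covered pseudocount, filter, scaling, gene classes, moderation, replicate block and each library left out. The fragment steps, the lengths and the crossed block were added after the data were seen.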

Additional observations from a re-analysis of the deposited data

How the results depend on the processing

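Over the 15 or 16 alternatives for each, 0 of the 7 tested members passed the threshold in any. TRAF6 changed sign with median ratio scaling (0.010), with sums set equal without small RNA genes (0.054) and with quantile normalization (0.087). When 1 library was left out, log2 differences ran from -0.25 to 0.47 for SQSTM1, -0.071 to 0.55 for TRAF3IP2, -0.10 to 0.12 for ATM and -0.061 to 0.013 for TRAF6. They ran from -0.55 to 0.032 for TRAF2, -0.038 to 0.23 for NBR1, -0.035 to 0.29 for GSDMD and -0.25 to 0.31 for IL18BP. The ratio differences ran from -0.24 to 0.090 for ATM to ATR, -0.49 to 0.51 for SQSTM1 to NBR1, 0.085 to 0.36 for IRAK1 to IRAK4 and -0.14 to 0.60 for TRAF6 to TRAF2. Members without overlap numbered 4 to 5 higher and 0 to 2 lower then, since a lone library overlaps less often: of the 12504 tested genes, 2945 to 4205 were then higher and 3510 to 5631 lower without overlap. Lower members without overlap were 2 with no filter and 1 with sums set equal, because IL1A and IL1B enter. The cause of the other shifts was not tested.

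The number of all tested genes called, 11 in the main analysis, was 1 with no filter, 1 without small RNA genes and 41 to 63 with a library left out. Replicate numbers did not pair the libraries: deviations of same-numbered libraries correlated at -0.352 over genes, and at -0.758 with small RNA genes left out. The replicate block thus models a pairing that the libraries do not show. With it 65 of the 12504 tested genes were called, none of them a member (0). Of the 17 IL1 response genes 4 were called, all lower, among them IL8 (limma, adjusted p = 0.0141). As that list was made with the behaviour of its genes known, these calls support no direction. With the crossed block, noDOX 1 with DOX 2, added after seeing the data, 7 of all tested genes were called. Genes at an unadjusted p under 0.05 then went from 793 to 2617.

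Medians of the lists with 5 or more tested genes moved by more than the spread of library medians as follows. With sums set equal they were 0.081 for the MYD88 relay, -0.049 for the NF-κB core, 0.11 for autophagy receptors, 0.12 for autophagy core genes, 0.44 for p62 partners and 0.15 for DNA damage genes. That scaling moved the median of all tested genes from -0.04 to 0.07. Quantile normalization gave 0.087 for the relay, -0.088 for the NF-κB core, 0.068 for autophagy receptors and 0.073 for DNA damage genes, and median ratio scaling -0.094 and 0.082 for the NF-κB core and DNA damage genes. The mean filter of 5 FPKM gave 0.25 for IL1 receptors, -0.12 for the NF-κB core and -0.026 for DNA damage genes. No filter gave -0.0083 for IL1 receptors and -1.15 for IL1 response genes. Pseudocounts of 0.1 and 0.5 gave -0.19 and -0.16 for the NF-κB core and -1.94 and -1.57 for response genes. With a library left out the ranges were -0.46 to -0.15 for IL1 receptors, -0.24 to -0.14 for the NF-κB core, -0.17 to 0.030 for autophagy receptors, -0.064 to 0.094 for autophagy core genes, 0.063 to 0.52 for p62 partners and 0.028 to 0.070 for DNA damage genes.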
